A study of Homo sapiens with 32 samples.

Results

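The genes described here encode the proteins of the cytosolic ribosome, in HCT116 human colorectal carcinoma cells that were made to lose the RNA-binding protein IGF2BP3 or IGF2BP2 and then put under stress of the endoplasmic reticulum. Genes were taken by symbol (RPL and RPS followed by a number, and RPSA, RPLP0, RPLP1 and RPLP2), protein-coding genes only, with a mean count of at least 100 over the libraries. Of 83 genes with such a symbol among 60660 gene identifiers, 77 passed the minimum, 29 of the small and 48 of the large subunit. RPL36A (mean count 116), RPL26 (257) and RPS15A (437) lay just above it, and RPL17 (86.9) and RPS10 (52.6) just below. RPL3L stood at 3.16, and RPL39L and RPL10L had 0 counts in every library, which allows up to 3 counts, or 0.12 to 0.18 CPM (counts per 1000000 counts of the library), in each. RPS27L and the S6 kinase genes, whose symbols look alike, are not among the members.

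All 32 libraries came from HCT116 cells of the genotype Tet-OsTIR1-PURO, which carry a doxycycline-inducible OsTIR1 gene. Parental cells were represented by 2 samples, IGF2BP3 knockout by the single-cell clones A3, D12 and E4, and IGF2BP2 knockout by the single-cell clones B7, F6 and G6, each sequenced in 2 replicates per treatment. This gave 4 parental libraries in DMSO and 4 in tunicamycin, and 6 and 6 libraries for each knockout. Tunicamycin, an inhibitor of N-linked glycosylation that brings on the unfolded protein response, was given to parental cells and IGF2BP3 knockout clones at 5 µg/mL for 4 h against DMSO, and the labels give no dose or time for the IGF2BP2 knockout clones. The control libraries of clone G6 are called control in their titles and tunicamycin in another label. They were placed by title. In them DDIT3 and HSPA5, genes of the unfolded protein response, stood in the range of the other DMSO libraries. DDIT3 had 2.92 and 2.43 CPM there, against 214 and 215 CPM in the tunicamycin libraries of G6. HSPA5 had 992 and 822 CPM, against 9671 and 9907 CPM.

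The ribosome joins amino acids into protein, and its small subunit reads the mRNA while its large subunit forms the peptide bonds. Ribosomal protein mRNAs in mammals belong to the 5′ terminal oligopyrimidine (TOP) class: they begin with a C and a run of pyrimidines, and the LARP1 protein and the mTORC1 kinase govern their translation through this start. Cells in which the PERK kinase has sensed unfolded protein reduce the initiation of translation by phosphorylating eIF2.

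The annotated 5′ ends of the mRNAs are shown for members whose values are given below, because the TOP start is the sequence feature that the family shares. Each window holds 30 bases, 10 before the annotated start and 20 from it (RefSeq, GRCh38.p14), with the pyrimidine tract in capitals. A tract was counted where a C within 5 bases of the start was followed by at least 4 pyrimidines (C or T) on the transcribed strand. The first 4 belong to genes called higher in tunicamycin, and RPL22 and RPS6 were not called. The last 3, in which this rule found no tract, are RPL10, called higher, and RPS26 and RPL26L1, called lower. In RPS26 a pyrimidine run that opens with a C lies just outside the 5 bases. A missing tract thus depends on the annotated start, and the starts used in these cells were not measured.
RPL10A, chr6:35468391-35468420, plus strand: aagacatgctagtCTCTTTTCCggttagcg
RPL3, chr22:39319604-39319633, minus strand: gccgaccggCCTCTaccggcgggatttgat
RPS9, chr19:54200848-54200877, plus strand: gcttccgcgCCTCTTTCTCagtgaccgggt
RPL22L1, chr3:170870176-170870205, minus strand: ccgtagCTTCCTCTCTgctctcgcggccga
RPL22, chr1:6199576-6199605, minus strand: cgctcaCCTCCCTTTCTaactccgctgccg
RPS6, chr9:19380217-19380246, minus strand: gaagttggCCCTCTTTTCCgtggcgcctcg
RPL10, chrX:154398055-154398084, plus strand: ccactctcagaaatatacgtctgtcacagt
RPS26, chr12:56041908-56041937, plus strand: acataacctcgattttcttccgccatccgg
RPL26L1, chr5:172958719-172958748, plus strand: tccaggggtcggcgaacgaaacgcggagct

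Of the 77 members, 63 had an entry in the RefSeq table and 50 of these (79.4%) held a tract, of 5 to 22 bases with a median of 10.5. Over all 27305 genes of the table the share was 21.1%. The share was 83.3% among 12 translation factors of the TOP class and 21.4% among 70 mitochondrial ribosomal proteins, whose mRNAs are not of that class. A tract was present in 9 of 10 members called higher in tunicamycin and in 41 of 51 members that were not called.

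Total counts ran from 16651438 to 24913021 per library (median 21441775.5), and the members took 4.63% to 5.86% of them. The targeted genes followed the labels. IGF2BP3 stood at 18.7 to 50.9 CPM (TMM-scaled, over 12 libraries) in its knockout clones and 70.1 to 82.8 CPM in parental libraries. The clones were uneven, with 41.1 to 50.9 CPM in D12, 18.7 to 30.2 CPM in A3 and 19.7 to 25.3 CPM in E4. IGF2BP2 stood at 81.3 to 116 CPM in its knockout clones and 159 to 204 CPM in parental libraries. The epithelial markers EPCAM, KRT8, KRT18 and CDH1 had at least 16.5 CPM in every library. CDH1 (0.55) and KRT18 (0.26) were higher in tunicamycin on the log2 scale. The leukocyte and endothelial markers PTPRC, CD3E and PECAM1 had at most 0.14 CPM. COL1A1, a collagen gene followed as a further marker, had 4.61 to 12.3 CPM. All 6 unfolded protein response genes followed, among them HSPA5 and DDIT3, were higher in tunicamycin, by 1.16 to 6.57 on the log2 scale. Replicate 1 and replicate 2 libraries stood apart, and values within each are given for the main counts, medians and leading members. Nothing in the labels says whether the replicates of a line were separate cultures, so p-values measure the spread between these libraries, which may be technical.

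Per length, the highest members were RPS18 at 2240 CPM per kb of transcript, RPS2 at 2191, RPL8 at 1862 and RPLP0 at 1789. RPS18 lies in the head of the small subunit, RPS2 near the mRNA entry and RPLP0 at the root of the stalk that receives elongation factors. The lowest were RPS15A at 9.38, RPL36A at 12.9, RPS23 at 18.8 and RPL26 at 20.9. How reads that fit several genes were counted is not given in the sources used here, so levels of members with near-identical copies are uncertain. The pseudogenes of ribosomal proteins together held between 1.83% and 2.67% of the count of the members. RPS10-NUDT3, RPL17-C18orf32 and RPL36A-HNRNPH2, readthrough genes that overlap RPS10, RPL17 and RPL36A, were listed with a mean count of 0.

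Members moved together between libraries. Over the 32 libraries, the correlation of a member's log2(CPM + 1) with the median of the other members had a median of 0.864, and 57 members were above 0.8. The libraries share replicate number, line and treatment, so this is a description only. RPL36A (r = -0.513) and RPL26 (r = -0.374) ran the other way. The same split appeared by replicate number: 72 members were lower in replicate 2 on average, with a median difference of -0.18 on the log2 scale, and 27 of them were lower in all 16 combinations of line and treatment. RPL26 (0.49) and RPL36A (0.49) were higher in replicate 2 in all 16.

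Tunicamycin against DMSO over all lines asked what acute stress did to ribosomal protein mRNAs. The family stayed close to level: 13 of 77 members were called, 11 higher and 2 lower, all by less than 0.25 on the log2 scale, whereas 53.5% of the 15622 genes tested were called (quasi-likelihood test of edgeR with the line as a term, called at a Benjamini-Hochberg adjusted p under 0.05). By direction, 25% of all genes were called higher and 28.4% lower. The median log2 fold change of the members was 0.055 against -0.009 for all genes, but with scaling by total counts it turned to -0.022 while that of all genes became -0.087. The split of calls then became 6 higher and 14 lower, with 9156 of 15622 genes called, so the sign of the family median depends on the scaling. Its distance above the median of all genes (0.064 and 0.065) could hardly change, because scaling moves all genes of a library together. In bulk libraries these values are shares of the RNA, and a change in RNA per cell cannot be told apart from a change in other transcripts. The median size of change, regardless of sign, was 0.059 for members and 0.18 for all genes, with median SEs of 0.048 and 0.052. The members' median was 0.088 in replicate 1 alone and 0.037 in replicate 2 alone. The count was 23 (22 higher and 1 lower) without the G6 control libraries, 22 without clone G6, 31 in replicate 1 alone and 33 in replicate 2 alone. Of all genes, 8109 of 15492 were called without the G6 control libraries and 8090 of 15495 without clone G6. In replicate 1 alone 7097 of 15285 were called, and in replicate 2 alone 9024 of 15911. A term for the replicate number also raised the count of members, to a share still below that of all genes, with 9559 of 15622 genes called.

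**Figure D1:**
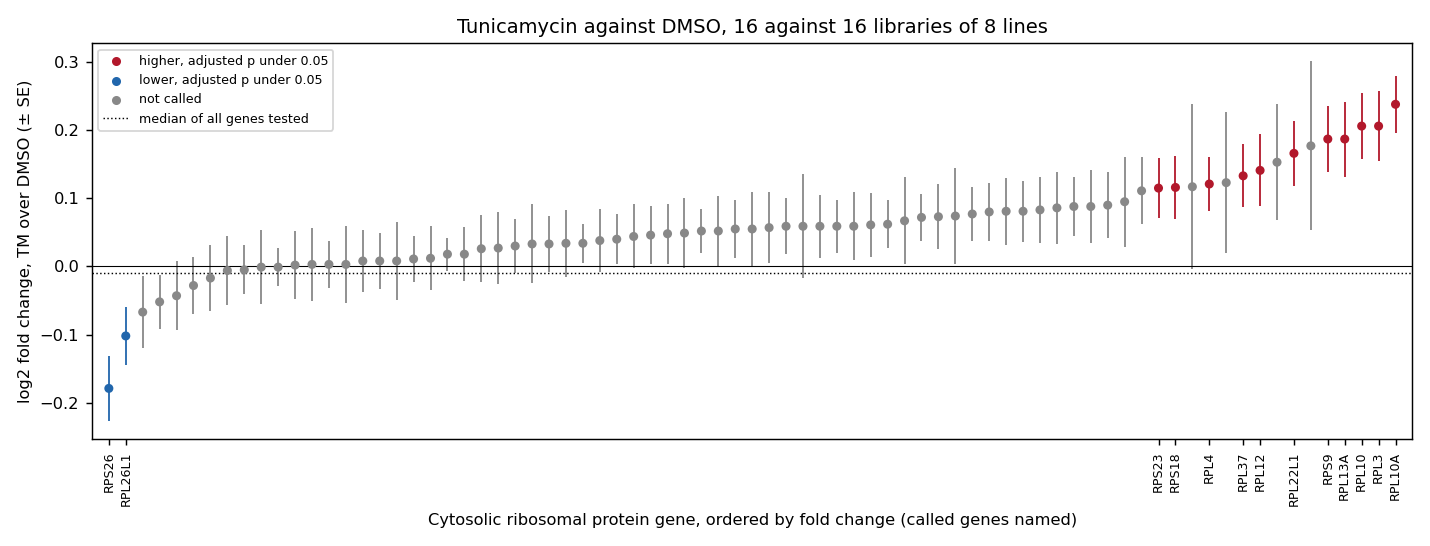
Log2 fold change (± SE) of each of the 77 members, tunicamycin over DMSO, in 16 against 16 libraries of 8 lines. Members called higher are red (11) and members called lower are blue (2). These 13 are named on the axis, and RPS26 and RPL10A stand at the ends, at -0.18 and 0.24.

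RPL10A rose most. Its product forms the mobile L1 stalk at the site where used tRNA leaves the ribosome, and the gene lies at chr6:35468408-35470785 (GENCODE 29, GRCh38). In parental DMSO libraries it stood at 706 and 750 CPM in replicate 1 and 634 and 621 CPM in replicate 2, and in tunicamycin at 867 and 894 CPM and at 726 and 773 CPM. Within each replicate number all parental tunicamycin libraries were above all DMSO libraries, while across replicates the groups overlapped. In IGF2BP3 knockout libraries the lowest, median and highest values were 572, 628 and 719 CPM in DMSO and 674, 754 and 828 CPM in tunicamycin. In IGF2BP2 knockout libraries they were 588, 633 and 761 CPM in DMSO and 679, 756 and 880 CPM in tunicamycin. The knockout groups thus overlapped between treatments as well, but tunicamycin was higher in 16 of 16 pairs of the same line and replicate number. The log2 fold change over all lines was 0.24 (SE 0.042, adjusted p 1.4e-05 by edgeR), and it was 0.27 in replicate 1 and 0.23 in replicate 2.

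RPL10 (chrX:154389955-154409168) and RPL3 (chr22:39312882-39320389) encode proteins by the peptidyl transferase centre, where the peptide bond is made. RPL10 stood at 690, 688, 556 and 530 CPM in parental DMSO libraries and at 780, 827, 628 and 669 CPM in tunicamycin, in the order sample 1 and 2 of replicate 1, then of replicate 2. It rose in 16 of 16 pairs, by 0.21 on the log2 scale (SE 0.049, adjusted p 0.00068 by edgeR). RPL3 stood at 2220, 2312, 1805 and 1714 CPM in parental DMSO libraries and at 2515, 2697, 2109 and 2131 CPM in tunicamycin. Its change was 0.21 (SE 0.051, adjusted p 0.0011 by edgeR), again with 16 of 16 pairs higher.

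RPS9 (0.19, SE 0.048, adjusted p 0.0013 by edgeR, 15 of 16 pairs) was the small-subunit member with the highest fold change, and its product helps hold the mRNA entry channel. RPL13A (0.19) also has a role outside the ribosome in interferon-treated cells. RPL22L1 (0.17) is the paralog of RPL22. These 6 genes, RPL10A, RPL10, RPL3, RPS9, RPL13A and RPL22L1, were called higher in each of the 19 alternative settings of this comparison. Within replicate 1 and replicate 2 alone the log2 fold changes were 0.23 and 0.20 for RPL10, 0.22 and 0.22 for RPL3, 0.23 and 0.16 for RPS9, 0.21 and 0.18 for RPL13A, and 0.20 and 0.16 for RPL22L1. The other members called higher were RPL12 at the stalk base (0.14), RPL37 (0.13), RPL4 of the exit tunnel (0.12), RPS18 (0.12) and RPS23 of the decoding centre (0.12). Each of these 5 calls was lost with total-count scaling, those of RPL12 and RPS18 also without clone E4 (adjusted p up to 0.17 and 0.35 over the alternatives), that of RPL37 without replicate 1 of parental sample 2 or in replicate 2 alone, and that of RPS23 in 7 of 19 settings, among them each of clones A3, B7 and D12 and replicate 1 of either parental sample left out.

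**Figure D2:**
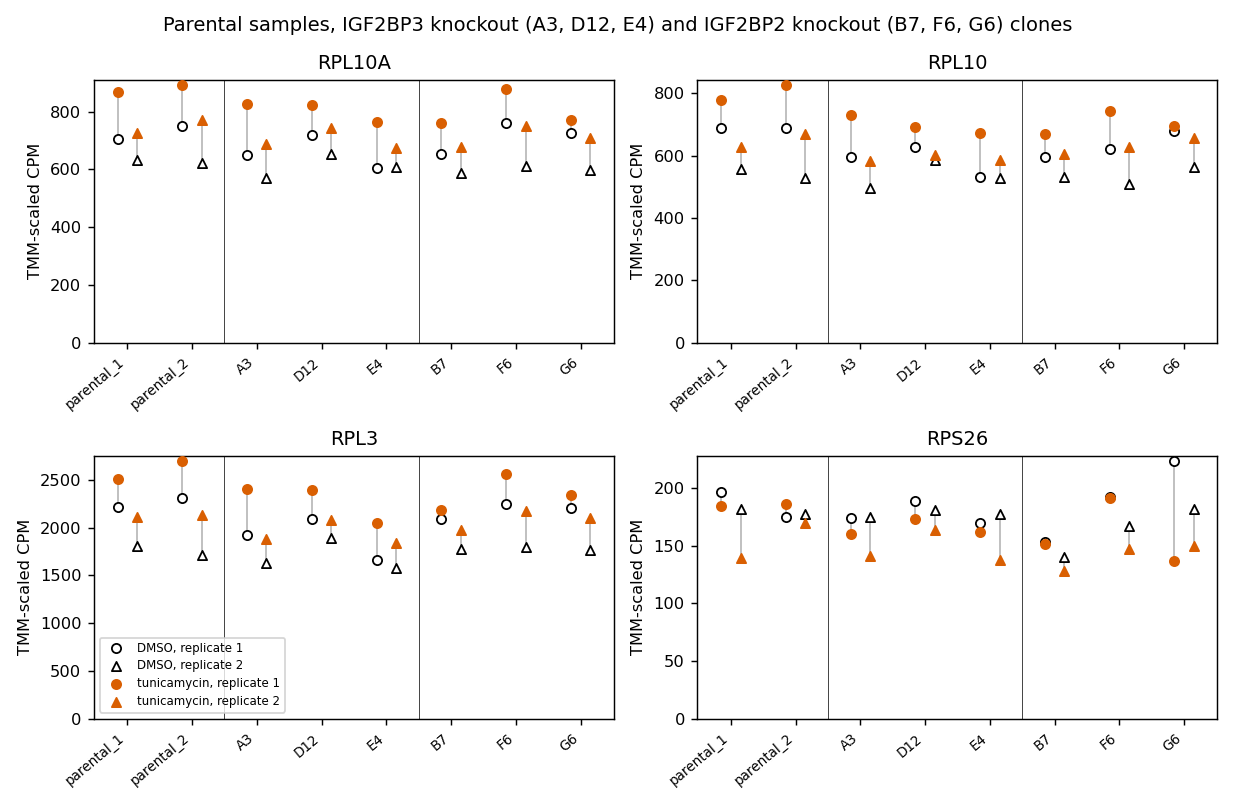
TMM-scaled CPM of RPL10A, RPL10, RPL3 and RPS26 in every library, open for DMSO and filled for tunicamycin, with circles for replicate 1 and triangles for replicate 2, and lines that join libraries of the same line and replicate number. RPL10A, RPL10 and RPL3 were higher in tunicamycin in 16 of 16 pairs, and RPS26 was higher in 1 of 16.

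RPS26 (chr12:56041351-56044697), whose product lines the mRNA exit and touches mRNA upstream of the start codon, fell. In parental libraries it stood at 197, 175, 182 and 177 CPM in DMSO and at 184, 186, 139 and 170 CPM in tunicamycin, in the same order of libraries as above. In IGF2BP3 knockout libraries the lowest, median and highest values were 170, 176 and 189 CPM in DMSO and 138, 161 and 173 CPM in tunicamycin. In IGF2BP2 knockout libraries they were 141, 174 and 223 CPM and 128, 149 and 191 CPM, where the DMSO value of 223 CPM and a tunicamycin value of 137 CPM are the G6 pair of replicate 1. The fold change over all lines was -0.18 (SE 0.048, adjusted p 0.0022 by edgeR), and 15 of 16 pairs were lower. It was -0.24 in replicate 2 and -0.11 in replicate 1, where the call was lost (adjusted p 0.18 by edgeR). RPL26L1, a near-identical paralog of RPL26, fell by 0.10 on the log2 scale (SE 0.042, adjusted p 0.042 by edgeR, 13 of 16 pairs lower). That call was lost in 11 of 19 settings, among them DESeq2, replicate 1 alone, and each of clones A3, D12, E4, F6 and G6 and either replicate of parental sample 1 left out.

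No other member followed for a known role passed the test. RPS6, the substrate of the S6 kinases, had a value of 0.062 on the log2 scale (SE 0.035, adjusted p 0.14 by edgeR), with 1190, 1340 and 1490 CPM as lowest, median and highest in IGF2BP2 knockout DMSO libraries and 1250, 1420 and 1560 CPM in tunicamycin. RPL5 (0.072, adjusted p 0.072 by edgeR) and RPL11 (0.040, adjusted p 0.38 by edgeR), which with 5S rRNA bind the p53 regulator MDM2, did not pass either. RPS3 (0.059), RPSA (0.061), RPS20 (0.033), a protein ubiquitinated on collided ribosomes, and RPS27A (0.018), made as a fusion with ubiquitin, had adjusted p values of 0.29 to 0.73 by edgeR. The stalk proteins that receive elongation factors had changes of 0.11 for RPLP0 (adjusted p 0.060 by edgeR), 0.090 for RPLP1 and 0.059 for RPLP2. Small-subunit and large-subunit members had medians of 0.059 and 0.052, with 4 of 29 and 9 of 48 called.

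Among paralogs, RPL22L1 was called higher while RPL22 (0.018, SE 0.024, adjusted p 0.56 by edgeR) was not, and the difference between them was not tested. With total-count scaling RPL22 had a log2 fold change of -0.059 and was called lower (adjusted p 0.0055 by edgeR). RPL7L1 had -0.005 (adjusted p 0.92 by edgeR). Outside the members, RPS27L, a p53-regulated relative of RPS27, fell by 0.22 (SE 0.041, adjusted p 3.2e-05 by edgeR), from 44.4 to 49.7 CPM in parental DMSO libraries to 38.1 to 45.5 CPM in tunicamycin. RPL36AL, the paralog of RPL36A, fell by 0.12 (adjusted p 0.0033 by edgeR). The ribosome-associated RACK1 had 0.095 (adjusted p 0.053 by edgeR), and the ubiquitin-like fusion FAU had 0.018.

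Within each genotype fewer members were called in the main fits, and adding a term for the replicate number raised each count. In parental cells that term brought the share of members called above that of all genes. In both knockouts it stayed below. In parental cells 1 of 77 was called, RPL10A (0.27, SE 0.076, adjusted p 0.026 by edgeR), against 26.8% of all genes (12.5% higher and 14.3% lower), and 72 members had a positive change with a median of 0.11. The count was 0 without replicate 1 and 8 without replicate 2 of parental sample 1, with 2519 of 14609 and 2774 of 14292 genes called. Replicate 1 alone called 41 members (median 0.15) and 4544 of 14235 genes, a larger share of the members. Replicate 2 alone called 20 members (median 0.071) and 5391 of 14906 genes. In IGF2BP3 knockout clones 7 of 77 were called against 33.8% of all genes (16.2% higher and 17.6% lower): RPL10A (0.26), RPL3 (0.24), RPL10 (0.21), RPS9 (0.20), RPL22L1 and RPL13A rose and RPS26 (-0.18) fell. Leaving out clone D12 left 4 calls and leaving out clone E4 left 1, with 3176 of 14414 and 3174 of 14271 genes called. The median was 0.049, with 0.12 in replicate 1 and -0.013 in replicate 2. Replicate 1 alone called 40 members and 4933 of 14103 genes, again a larger share of the members. Replicate 2 alone called 22 members, 11 of them lower, and 6602 of 14632 genes.

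In IGF2BP2 knockout clones RPL10A (0.21, SE 0.062, adjusted p 0.015 by edgeR) and RPL10 (0.19, SE 0.061, adjusted p 0.020 by edgeR) were called against 40.1% of all genes (19.2% higher and 20.9% lower), with a median over members of 0.030. Without the G6 control libraries the median was 0.082 and again 2 members were called, with 4445 of 14420 genes. Without clone B7 no member was called, with 4045 of 14262 genes. Without clone F6 1 was, with 4496 of 14224 genes. Replicate 1 alone called 2 members (median -0.001) and 4246 of 14009 genes. Replicate 2 alone called 46 members (median 0.074) and 6657 of 14528 genes, a larger share of the members. With total-count scaling the split of higher and lower calls became 1 and 1 in parental cells, 2 and 7 for IGF2BP3 and 1 and 4 for IGF2BP2 knockout clones, with medians of 0.015, -0.029 and -0.051. In that order 4787 of 14398, 5716 of 14265 and 6479 of 14145 genes were called.

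**Figure D3:**
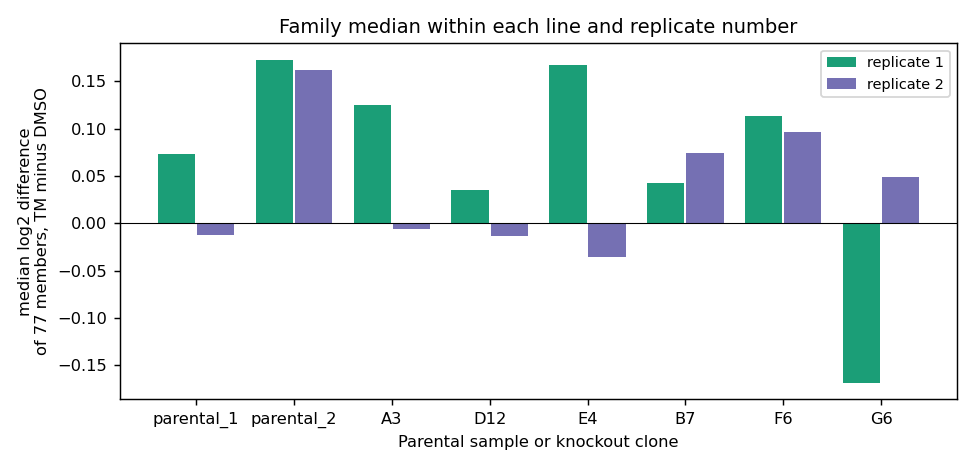
Median over the 77 members of the log2 difference between the tunicamycin and the DMSO library of the same line and replicate number, with bars from 0. Of 16 pairs, clone G6 replicate 1 had the lowest value, -0.17, and parental sample 2 replicate 1 the highest, 0.17.

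Whether the response differed between genotypes was tested with interaction terms. No member was called for IGF2BP3 or IGF2BP2 knockout by edgeR or DESeq2, 0% of all genes were called, and no member had an unadjusted p under 0.05. For IGF2BP3 knockout the members' interaction values ran from -0.23 to 0.17 with a median of -0.052 and a median SE of 0.11, and for IGF2BP2 knockout from -0.28 to 0.34 with a median of -0.077 and a median SE of 0.13. The lowest unadjusted p values belonged to RPS25 (-0.13, p 0.17) and RPL23A (-0.23, p 0.19) in the edgeR interaction test for IGF2BP3, and to RPL23A (-0.28, p 0.21) and RPL36A (0.34, p 0.23) in that for IGF2BP2. RPL23A in IGF2BP2 knockout had -0.62 in replicate 1 and 0.025 in replicate 2. The median for IGF2BP3 was -0.040 in replicate 1 and -0.087 in replicate 2. The median for IGF2BP2 was -0.14 in replicate 1, 0.010 in replicate 2 and -0.027 without the G6 control libraries.

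Gene lists around the ribosome were followed in the same comparison over all lines, and differences between lists were not tested. There 53.5% of all genes were called, 25% higher and 28.4% lower. The share called was 55.3% of mitochondrial ribosomal proteins, 64.7% of translation factors of the TOP class and 59.1% of other initiation factors. It was 47.5% of assembly genes, 64.3% of RNA polymerase I genes and 14.4% of ribosomal protein pseudogenes. Mitochondrial ribosomal proteins, which build the separate ribosome of the mitochondrion, had 6 of 76 called higher and 36 lower, with a median of -0.098 (-0.080 in replicate 1 and -0.14 in replicate 2), and MRPL44 (-0.57) and MRPL36 (-0.50) had the lowest adjusted p values. Translation factors of the TOP class had 11 of 17 higher and none lower (edgeR), with a median of 0.092 (0.098 in replicate 1 and 0.13 in replicate 2). They included TPT1 (0.25), EEF1A1 (0.21), which brings tRNA to the ribosome, EIF4B (0.17) and EIF2S3 (0.13). Of 22 other initiation factors and their regulators 8 were higher, among them EIF5 (0.65) and EIF1 (0.57), which act in start codon selection, and 5 lower, such as EIF4E (-0.17), which binds the mRNA cap. Of the repressors that bind eIF4E, EIF4EBP1 (0.46) was among the higher and EIF4EBP2 (-0.36) among the lower.

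Genes of ribosome assembly had 12 of 40 higher, such as RRP12 (0.43), and 7 lower, such as RRS1 (-0.54), with a median of -0.006 (0.016 in replicate 1 and 0.019 in replicate 2). RNA polymerase I, which makes the large rRNAs, had 3 of 14 higher and 6 lower. UBTF (-0.33), its architectural factor, and the subunit gene POLR1G (-0.72) fell. Of 104 ribosomal protein pseudogenes tested, 11 were higher and 4 lower, with a median of 0.15 and a median SE of 0.18. In replicate 1 alone 34 of 101 were higher with a median of 0.46, and in replicate 2 alone 9 of 112 were higher with a median of -0.058. Reads of a member and of its pseudogenes may not be fully separated, and the part of this in the members' values was not tested.

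**Figure D4:**
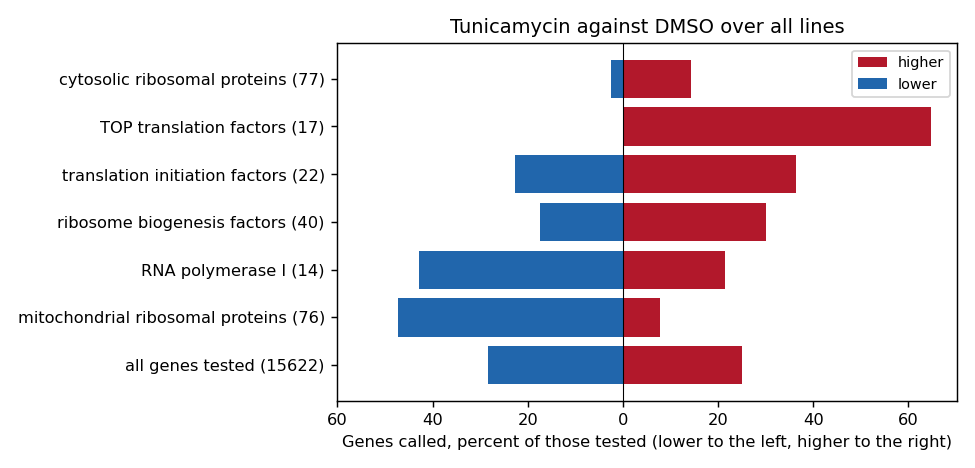
Percent of the tested genes of each list that were called in tunicamycin against DMSO over all lines, lower to the left and higher to the right, with the number tested in brackets. The 17 TOP translation factors had 11 calls, all higher, and the 76 mitochondrial ribosomal proteins had 36 lower and 6 higher. Over all genes tested, 25% were called higher and 28.4% lower.

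The comparisons of knockout with parental cells asked whether loss of an IGF2BP protein altered the family. No member was called in any of the 6 comparisons of genotypes, by edgeR or by DESeq2, or with counts summed per line, in fits without a term for the replicate number. With that term 8 members were called lower in 1 of the 6, IGF2BP3 knockout against parental cells in tunicamycin. There it called 333 of 14626 genes. The genotype fits have no term for the line and take the 2 libraries of a line as separate, which their SEs and p-values carry. For IGF2BP3 knockout against parental cells in DMSO, 1.61% of all genes were called. With counts summed per line it was 47 of 16544 genes. In the main fit the members' log2 fold changes ran from -0.19 to 0.072 with a median of -0.058 and a median SE of 0.063, and 4 members had an unadjusted p under 0.05. RPL28, a large-subunit protein, stood at 417 to 519 CPM with a median of 484 CPM in parental DMSO libraries and 380 to 487 CPM with a median of 410 CPM in IGF2BP3 knockout DMSO libraries, and the groups overlapped, in replicate 2 and not in replicate 1 (-0.19, SE 0.072, adjusted p 0.23 by edgeR). RPS12 had -0.14 (SE 0.056, adjusted p 0.25 by edgeR).

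In tunicamycin the IGF2BP3 knockout comparison called 0.718% of all genes, and 34 of 16522 genes with counts summed per line. In the main fit 74 of 77 members had a negative value, with a median of -0.12 and a median SE of 0.080, and 14 had an unadjusted p under 0.05. The 2 lowest belonged to RPL41 (-0.24, SE 0.073, adjusted p 0.22 by edgeR), the smallest ribosomal protein, and RPS12 (-0.24, SE 0.077, adjusted p 0.26 by edgeR). In replicate 1 RPL41 stood at 544 and 561 CPM in the parental tunicamycin libraries and at 454, 447 and 445 CPM in those of clones A3, D12 and E4. In replicate 2 it stood at 422 and 472 CPM and at 395, 407 and 390 CPM. The groups did not overlap within either replicate, and overlapped only when both were pooled. The medians were -0.15 in replicate 1 and -0.086 in replicate 2, and in DMSO -0.12 and -0.007.

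IGF2BP2 knockout against parental cells called 0.0137% of all genes in DMSO and 0.00694% in tunicamycin. The members' medians were -0.034 and -0.11, with median SEs of 0.089 and 0.083, and 1 and 3 members had an unadjusted p under 0.05. In DMSO these values were lowest for RPL7 (0.18, adjusted p 0.98 by edgeR) and RPL22 (0.083), and in tunicamycin RPL41 (-0.22, adjusted p 0.70 by edgeR) was among the lowest. Over both treatments RPL7 stood above the parental mean by 0.35 in clone B7, 0.13 in F6 and 0.036 in G6 on the log2 scale. The medians in DMSO were 0.002 in replicate 1 and -0.074 in replicate 2, and in tunicamycin -0.15 and -0.058. Both knockouts were set against the same parental libraries.

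IGF2BP3 against IGF2BP2 knockout called 0.589% of all genes in DMSO and 0.391% in tunicamycin, with members' medians of -0.025 and -0.010 and 3 and 6 members at an unadjusted p under 0.05. RPL22 (-0.17 and -0.20, adjusted p 0.16 and 0.19 by edgeR) and RPL7 (-0.21 and -0.28, adjusted p 0.22 and 0.15 by edgeR) had the lowest in both treatments. Clones were uneven in both genes, as log2 differences from the parental mean over both treatments. RPL22 had -0.073, -0.013 and -0.28 in A3, D12 and E4, and 0.009, 0.089 and 0.082 in B7, F6 and G6. RPL7 had -0.091, 0.058 and -0.18 in A3, D12 and E4, and 0.35, 0.13 and 0.036 in B7, F6 and G6. Within replicates the medians in DMSO were -0.13 and 0.072, and in tunicamycin -0.015 and -0.016.

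Clones of the same knockout differed in a few members in the main fits. With a term for the replicate number more were called, a larger share of the members than of all genes. Among IGF2BP3 knockout clones RPL22 (adjusted p 0.0070) and RPL14 (adjusted p 0.041) were called by edgeR with treatment as a covariate, against 6.64% of all genes. RPL22, a large-subunit protein that also binds other RNAs, stood at 96.8 and 90.3 CPM in DMSO and 88.2 and 91.1 CPM in tunicamycin in clone E4, below all libraries of clones A3 (104 to 110 CPM) and D12 (104 to 116 CPM) and of the parental samples (105 to 120 CPM). RPL14 stood at 740 to 793 CPM in E4 and at 852 to 934 CPM in D12, with A3 (782 to 881 CPM) in between and overlapping both. Without clone E4 neither was called (adjusted p 0.86 and 0.64), and without D12 neither (0.063 and 0.37). Between D12 and E4, without A3, 19 members and 1326 of 14259 genes were called, a larger share of the members. Replicate 1 alone called 23 members and 1867 of 15345 genes. Replicate 2 alone called 54 members and 2926 of 15880 genes, a larger share of the members.

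Among IGF2BP2 knockout clones 4 members were called by edgeR, RPS20 (adjusted p 0.00032), RPL7 (0.0067), RPL8 (0.021) and RPL21 (0.044), against 23.2% of all genes. RPS20 stood at 840 and 743 CPM in DMSO and 877 and 783 CPM in tunicamycin in clone B7, against 482 to 643 CPM in F6, 529 to 642 CPM in G6 and 508 to 660 CPM in the parental samples, with no overlap. RPL7 stood at 1790 to 2160 CPM in B7, 1490 to 1850 CPM in F6 and 1550 to 1630 CPM in G6, so that B7 and F6 overlapped. RPL8, near the peptidyl transferase centre, stood at 2150 to 2530 CPM in B7 and at 1610 to 2170 CPM in the other 2 clones, with a small overlap. RPL21 was lowest in B7 (347 to 405 CPM), but its range overlapped those of F6 (from 395 CPM) and G6 (from 400 CPM). Without clone B7 none of the 4 was called (adjusted p 0.44 to 0.94), and without clone G6 8 members and 2820 of 14188 genes were. RPL21 was also lost without clone F6 (0.14). Replicate 1 alone called 4 members and 2205 of 15137 genes. Replicate 2 alone called 65 members and 6017 of 15838 genes, a larger share of the members.

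RPS20, RPL7 and RPL8, with RPL30, are the 4 members on chromosome 8. In B7 these 4 stood 0.23 to 0.48 above the parental mean on the log2 scale, while the 73 other members had a median of -0.17 and only 3 were above 0. Over 322 genes of chromosome 8 with a mean of at least 10 CPM, the median difference of B7 from parental cells was 0.45. In the other 5 clones it was -0.041 to 0.008, and the remaining clone and chromosome medians lay between -0.067 and 0.058. The copy number of the chromosome was not measured here, and its part in the result was not tested.

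**Figure D5:**
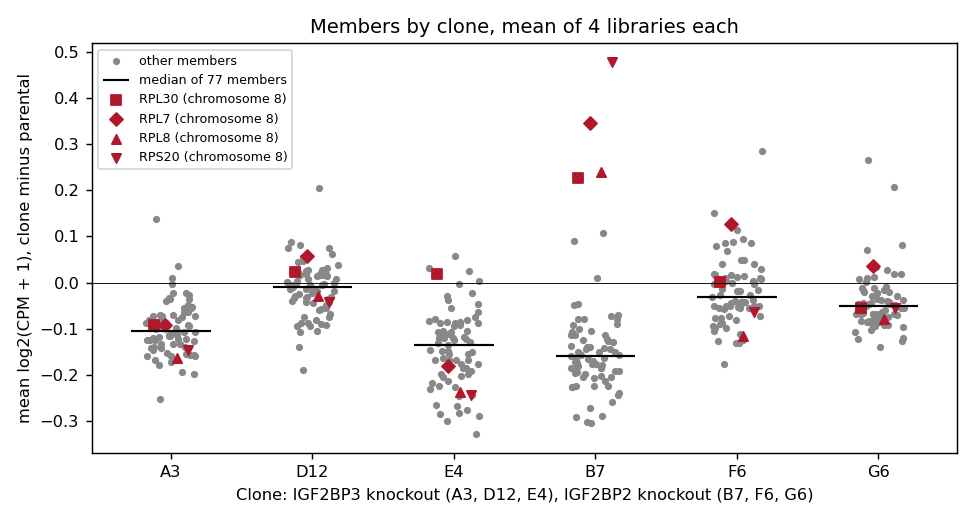
Difference of each member from the mean of the 8 parental libraries, in log2(CPM + 1), for each clone (mean of 4 libraries), with the 4 members of chromosome 8 in red and a line at the median of the 77 members. In B7 the red symbols lie at 0.23 to 0.48 while the median is -0.16.

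The family as a whole was also spread over the clones. The median difference from parental cells was -0.16 in B7, -0.14 in E4, -0.10 in A3, -0.051 in G6, -0.032 in F6 and -0.010 in D12, so that the clones of both knockouts were mixed in this order. The members' share of all counts was 5.29% ± 0.285 (SD, n = 4) in parental DMSO and 5.39% ± 0.432 (SD, n = 4) in parental tunicamycin libraries. In the same order of treatments, IGF2BP3 knockout libraries had 5.05% ± 0.255 and 5.02% ± 0.312 (SD, n = 6) and those of IGF2BP2 knockout 5.2% ± 0.386 and 5.09% ± 0.294 (SD, n = 6). With both replicates pooled, the ranges of all 6 groups overlapped. In replicate 1 alone parental DMSO libraries (5.50% to 5.57%) lay above those of IGF2BP3 knockout (4.80% to 5.41%). The same held in tunicamycin (5.61% to 5.86% against 5.11% to 5.33%). In replicate 2 alone these ranges overlapped in both treatments.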

How the data were processed

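Poly(A) RNA of 32 libraries was prepared with a directional kit and sequenced in paired reads of 100 bases, per the labels' protocols. The authors deposited whole-number counts per gene. STAR 2.7.5c and hg38 are named in the submitters' processing notes. The counting tool, the annotation, the use of strand and the treatment of reads that fit several genes are not given in the sources used here. Groups follow the sample titles. Symbols were found for 42022 of 60660 identifiers, and positions come from GENCODE 29.

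Each comparison was fitted over all genes with edgeR 4.0.16 in R 4.3.3 (filterByExpr, TMM, quasi-likelihood test, Benjamini-Hochberg adjustment over all genes tested, threshold 0.05). Treatment fits had the line as a term, clone fits the treatment. Genotype fits had neither, and the 2 libraries of a line in a treatment entered them as separate. SEs are those implied by the F statistic. The fits were tested on simulated data. Replicate pairs differed by more than sampling noise (chi-square per degree of freedom 4.59 to 25.2), so none was counted as a duplicate. Alternatives were DESeq2 1.42.0, its size factors, total counts, other filters, a replicate block, single replicates, summed lines, a joint fit, and libraries or clones left out. Values by line or pair are log2(CPM + 1). The members and gene lists were chosen with earlier results of these data known. Any member could be named. Values were given for up to 4 called members per direction with the largest changes in a comparison, for the 2 lowest p-values where none was called, for a fixed set of members with known roles and for paralogs, and for up to 4 genes per list. A few genes that this rule would name are not reported here.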

Additional observations from a re-analysis of the deposited data

Results flagged for a closer look

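In 180 groups of 4 or 6 libraries (29 members and the members' share of counts, each in 6 groups), 5 had a library apart from the rest by Dixon's criterion, where chance gives about 1 in 20. In 4 of them the library was clone F6, replicate 1, among the 6 IGF2BP2 knockout tunicamycin libraries. It stood at 272 CPM for RPL22L1 (others 195 to 220), 1690 CPM for RPS18 (others 1290 to 1420), 191 CPM for RPS26 (others 128 to 151) and 680 CPM for RPS9 (others 519 to 578). In the parental tunicamycin group RPS23 stood at 62.0 CPM in sample 1, replicate 2, against 72.7 to 73.8 CPM in the other 3. No member was called by the interaction tests of edgeR, and none moved one way in all pairs of a genotype and the other way in all pairs of another.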

How the results depend on the processing

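The counts of called members depended on the setting wherever members were called (always against 1, 7, 2 and 13 for tunicamycin in parental cells, IGF2BP3 knockout, IGF2BP2 knockout and all lines, and 2 and 4 for IGF2BP3 and IGF2BP2 knockout clones). In that order of comparisons, replicate 1 alone gave 41, 40, 2, 31, 23 and 4, and replicate 2 alone 20, 22, 46, 33, 54 and 65. Total counts gave 2 in parental cells, 5 in IGF2BP2 knockout, 20 over all lines, and 4 and 8 for the clones. No filter on low counts gave 11 in parental cells, 6 in IGF2BP2 knockout, and 8 and 19 for the clones, and a mean CPM of at least 1 gave 2 in parental cells and 6 and 7 for the clones. DESeq2 gave 4 in parental cells, 4 in IGF2BP2 knockout, and 9 and 7 for the clones, and its size factors gave 1 for IGF2BP3 knockout clones. One fit of all 32 libraries gave 2 in IGF2BP3 knockout, and the G6 control libraries left out gave 23 over all lines. The cause was not tested for any of these. Leaving out a clone or a parental library gave 0 to 8 in parental cells, 1 to 7 in IGF2BP3 knockout, 0 to 2 in IGF2BP2 knockout, 10 to 22 over all lines (22 without clone G6), and 0 to 19 and 0 to 8 for the clones.

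Same-numbered libraries deviated together, with r from 0.0632 to 0.661 (median 0.464) and 118 of 120 pairs above 0.1. Because not all were above 0.1, the replicate number was not taken as a pairing. The main fits have no term for it, so the difference between replicates is part of their spread. Counts of pairs of the same line and replicate number are a description only. With the replicate block 36, 13, 16, 32, 20 and 42 members were called in the order above. Of all genes, it called 5989 of 14398, 5980 of 14265, 7062 of 14145, 9559 of 15622, 2039 of 15517 and 5928 of 15356. The share called was thus larger for members than for all genes in parental cells and among the clones of either knockout. It was smaller in both knockouts and over all lines. In IGF2BP3 knockout against parental cells in tunicamycin 8 members were lower with the block, and 333 of 14626 genes were called. Without it 0 members were called there. The other 5 genotype comparisons and both interactions kept 0 calls in every setting run, the replicate block included. RPL22 over all lines was called lower with total counts (-0.059). With a mean count of at least 1000 there were 73 members.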
